A study of Mus musculus with 6 samples.

Results

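Expression of the NF-kB pathway, of the chemokines and adhesion molecules it is known to control, and of a few linked cytokine genes was followed in cultured mouse hepatic stellate cells, the pericytes of the liver. The set holds 38 genes, listed by symbol, out of 24940 in the deposited table, and every symbol was found there. It was split by role into 5 NF-kB subunits, 6 inhibitors or modulators, 9 receptor, adaptor and kinase genes, 2 adhesion molecules, 12 chemokines and 4 other products. Primary cells from female C57BL/6JBomTac mice were treated 2 days after isolation with 10 µM obeticholic acid (OCA), a bile acid derivative and agonist of the receptor FXR, or with the same volume of the vehicle dimethyl sulfoxide (DMSO). OCA and DMSO were each left on the cells for 6 hours, with 3 libraries per group (A, B and C). The labels call the OCA cells stimulated and the DMSO cells control, and name no other agent, no gene deletion and no inflammatory stimulus in either group. Separate animals or cultures behind the libraries are not stated, and p-values therefore measure the spread between these libraries alone, which may be technical.

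NF-kB is a family of dimeric transcription factors that inhibitory IkB proteins hold in the cytoplasm. When receptors for TNF, IL-1 or bacterial products are engaged, IkB kinases mark the inhibitors for destruction, and the freed dimers enter the nucleus. There they switch on genes for chemokines, adhesion molecules and cytokines, and also genes for inhibitors that end the response. In stellate cells the pathway is known for the recruitment of leukocytes to injured liver.

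Libraries held between 12260882 and 16336240 counts. Levels are given as CPM (the usual unit of counts relative to the scaled library total) or, between genes, as CPM per kilobase of transcript. Stellate markers were well detected, with all 12 listed markers at a mean of at least 1 CPM and a summed level of 2626 to 3070 CPM in OCA and 2925 to 3150 CPM in DMSO. Of these 12, Vipr1 was called higher and Reln and Rgs5 lower. Of 12 macrophage markers only Cd68 reached a mean of 1 CPM. The list summed to 6.20 to 7.88 CPM in OCA and 4.56 to 10.9 CPM in DMSO. In single libraries Cd5l (2.10 CPM in OCA A, 1.46 CPM in DMSO C) and Marco (1.39 CPM in OCA A) exceeded 1 CPM. The defining markers Ptprc, Adgre1 and Clec4f stayed below 0.5 CPM in every library. The 6 neutrophil markers summed to at most 0.236 CPM in OCA and 0.502 CPM in DMSO, with Retnlg at 0 throughout. Among the lymphocyte markers, Cd3d, Ms4a1 and Nkg7 had 0 counts in all libraries. The 10 endothelial markers summed to 7.22 to 10.3 CPM in OCA and 5.76 to 8.03 CPM in DMSO. Tek and Gpr182 averaged 3.37 and 2.44 CPM over all 6 libraries, Pecam1 stayed below 0.4 CPM in every library, and Fcgr2b was at 0. Of the endothelial markers 1, Gpr182, was called higher. The 9 hepatocyte markers summed to 10.5 to 15.6 CPM in OCA and 10.3 to 12.9 CPM in DMSO, with Apoa2 averaging 8.28 and Alb 2.18 CPM. The 5 bile duct markers summed to 11.3 to 14.8 CPM in OCA and 8.40 to 9.54 CPM in DMSO. Sox9, called higher, averaged 5.11 and Spp1 4.95 CPM, and Krt7 was at 0. The 6 measured mesothelial markers summed to at most 1.42 CPM in OCA and 1.92 CPM in DMSO (Wt1 averaged 1.09 CPM, Gpm6a was at 0). The 8 portal fibroblast markers summed to 28.0 to 37.2 CPM in OCA and 32.0 to 36.8 CPM in DMSO. Among these, Gas6 averaged 24.8, Eln 4.07, Entpd2 2.38 and Cd34 1.74 CPM, and Thy1 was at 0. The 8 myofibroblast markers summed to 2705 to 3336 CPM in OCA and 3017 to 3485 CPM in DMSO, with Col1a2 called lower. In bulk samples fewer cells of a type and less RNA per cell cannot be told apart.

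Under OCA 5 of the 38 genes changed. Nfkbia, which encodes the main IkB inhibitor, rose 1.23-fold. Nfkbiz, which encodes a nuclear IkB-like protein, fell by 51.4%, and Bcl3, which encodes another, fell by 39.7%. The adhesion molecule gene Icam1 fell by 21.5%, and Vcam1 fell by 16.6%. Within the set, no subunit, adaptor, kinase or tested chemokine gene passed the test, and neither did the TNF receptor gene Tnfrsf1a. Outside the set, the receptor genes Tnfrsf1b and Il1r1 were called higher, as described below.

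Of the 38 genes, 31 passed the filter on low counts and were tested, 1 was called higher and 4 lower, and 26 were not called. A gene was called at an adjusted p under 0.05 in the quasi-likelihood test of edgeR, with Benjamini-Hochberg adjustment over all 12687 tested genes. Of these, 5.20% were called, 2.18% higher and 3.03% lower. The median log2 fold change was -0.05 over the 31 genes and 0.00076 over all tested genes. The OCA and DMSO libraries did not overlap in 10 of the 31, of which 2 were higher and 8 lower under OCA. Over all tested genes 23.0% did not overlap, 11.6% higher and 11.3% lower. The 7 genes not tested were Traf1, Ccl11, Ccl20, Cxcl1, Cxcl2, Cxcl5 and Il1rl1, all under 1 CPM on average.

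Regions around the transcription start of called genes are shown, with 250 bases before the start base and 50 from it onward. They are given because the reported changes concern genes that NF-kB is known to control. The sequences come from RefSeq (GRCm38.p6, the assembly behind mm10), which held such a region for 27 of the 38 genes and for 3 of the 5 called ones, Nfkbia, Bcl3 and Icam1. Each is written 5′ to 3′ on the strand of the gene, and capitals mark matches to the NF-kB consensus, a motif of 10 letters searched on both strands.
Nfkbia, chr12:55492598-55492897, minus strand: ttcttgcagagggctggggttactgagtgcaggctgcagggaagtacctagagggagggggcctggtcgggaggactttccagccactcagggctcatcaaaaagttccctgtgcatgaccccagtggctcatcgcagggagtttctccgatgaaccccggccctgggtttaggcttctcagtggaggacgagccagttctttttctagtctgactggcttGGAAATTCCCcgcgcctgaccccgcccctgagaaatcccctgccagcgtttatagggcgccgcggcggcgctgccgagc
Bcl3, chr7:19822706-19823005, minus strand: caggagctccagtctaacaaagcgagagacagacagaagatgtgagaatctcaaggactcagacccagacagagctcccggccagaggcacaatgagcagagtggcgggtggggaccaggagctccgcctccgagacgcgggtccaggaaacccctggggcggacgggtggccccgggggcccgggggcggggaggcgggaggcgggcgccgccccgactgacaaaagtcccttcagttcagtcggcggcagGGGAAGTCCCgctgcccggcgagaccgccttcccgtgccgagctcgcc
Icam1, chr9:21015690-21015989, plus strand: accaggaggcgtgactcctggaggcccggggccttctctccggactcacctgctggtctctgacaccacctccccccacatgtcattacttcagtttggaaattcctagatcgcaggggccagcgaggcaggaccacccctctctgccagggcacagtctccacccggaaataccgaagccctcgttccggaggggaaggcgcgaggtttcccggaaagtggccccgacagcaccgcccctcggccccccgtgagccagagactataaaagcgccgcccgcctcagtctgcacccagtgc

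The Nfkbia region held 1 match, from 29 to 20 bases before the start, on the antisense strand. The Bcl3 region held 1, at bases 3 to 12 with the start base counted as 1, which reads as a match on both strands. The Icam1 window held no full match to the consensus. Its stretch tggaaattcc differs from the consensus in the first letter only, and looser forms were not searched. The consensus was present in 8.46% of all 32851 regions of this length and in 9.55% of the 27025 genes that have one, beside 13 of the 27 listed genes with a region. A narrower form within the consensus, with A after its GGG and TT before its CC, was present in 1.63% of genes and in 6 of the 27: Nfkb2, Nfkbia, Cxcl1, Cxcl2, Cxcl10 and Csf1. A match is a description of the letters, not evidence of binding. Matches stood in the regions of called and uncalled genes alike, as for the uncalled Cxcl10 and Csf1. These 2 matches are shown with 5 bases on either side, for comparison with the one at Nfkbia.
Nfkbia: ggcttGGAAATTCCCcgcgc
Cxcl10: ggagaGGGAAATTCCaagtt
Csf1: ttgagGGAAAGTCCCtaggg

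Per kilobase of transcript, the secreted products Cxcl12 and Csf1 were the most abundant of the 38 genes. Cxcl12, which encodes the CXCR4 ligand that retains and attracts leukocytes and progenitors, averaged 226 ± 14.2 CPM per kilobase in OCA and 227 ± 23.0 in DMSO (SD, n = 3 each, as throughout). Csf1, the growth factor of macrophages, averaged 204 ± 12.7 CPM per kilobase in OCA and 197 ± 16.6 in DMSO. Next came Tnfrsf1a, the main TNF receptor gene, with 109 ± 5.37 in OCA and 111 ± 8.59 in DMSO. On this scale Cxcl12 lay above Csf1 within each of the 6 libraries, although the ranges of the genes over the libraries of a group overlapped, and all libraries of both lay above those of Tnfrsf1a. At the other end, the 2 chemokine genes Ccl11 and Ccl20 had 0 counts in all 6 libraries, which at 3 counts over a group allows up to 0.0767 CPM in OCA and 0.0683 CPM in DMSO. Of the 12 chemokine genes 5 averaged under 1 CPM, while all subunit, inhibitor and adhesion genes averaged at least 5 CPM.

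**Figure D1:**
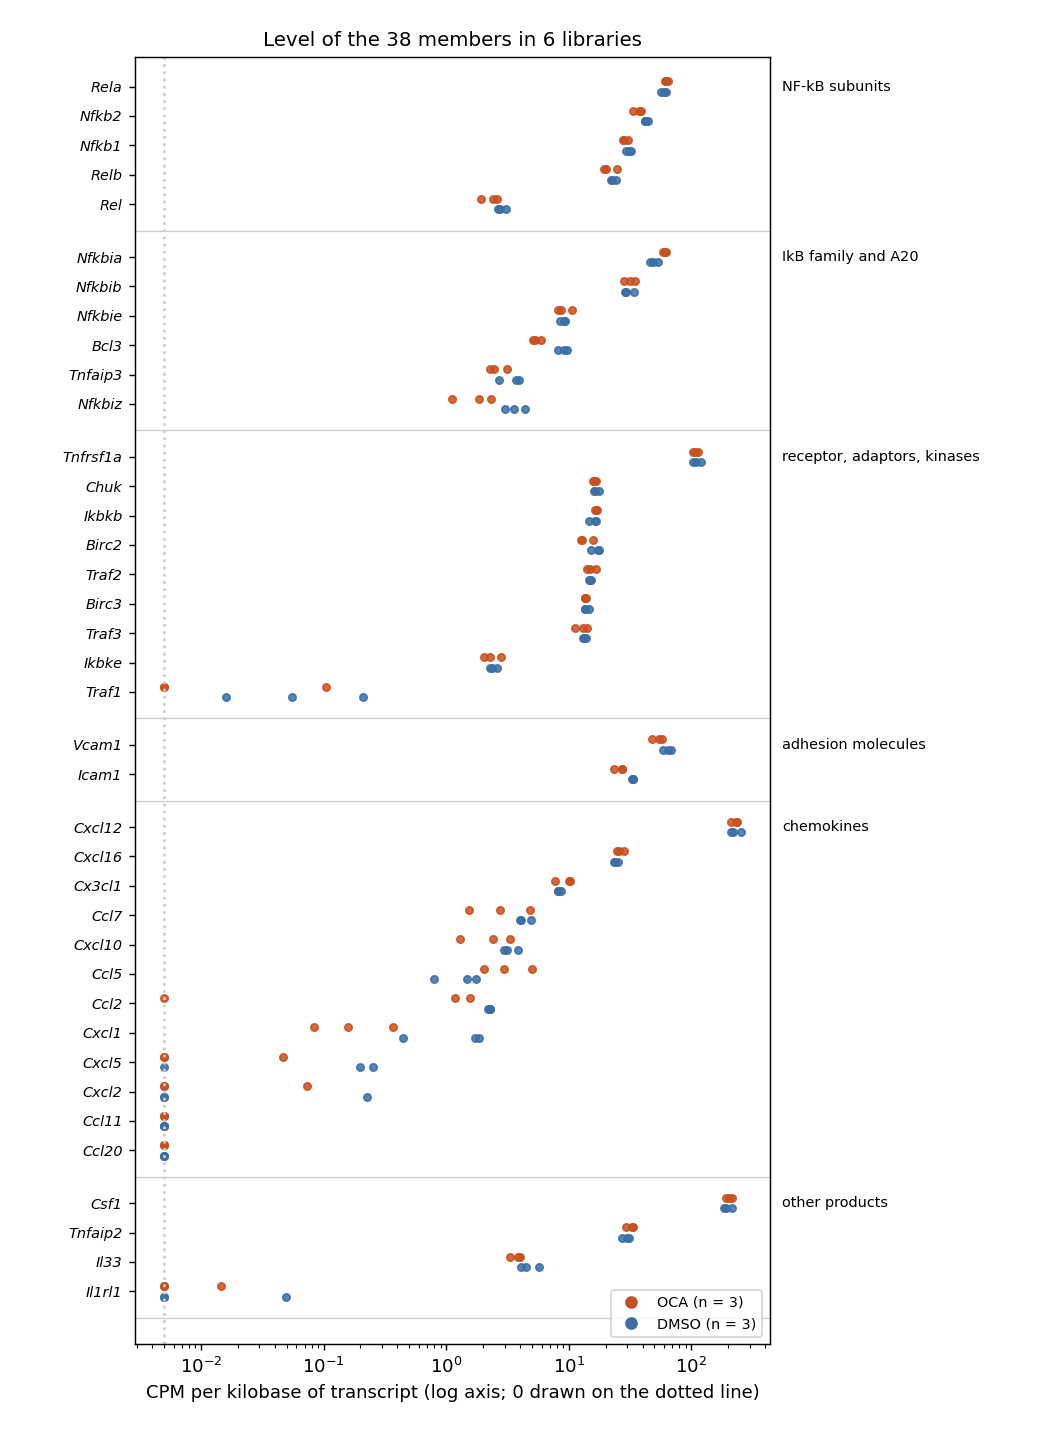
Level of each of the 38 genes in each library, in CPM per kilobase of transcript on a log axis, with OCA libraries (orange) drawn above DMSO libraries (blue) and values of 0 on the dotted line. Genes are grouped by role; Cxcl12 and Csf1 lie farthest right, and Ccl11 and Ccl20 are at 0 in all 6 libraries.

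Among the subunits none was called by edgeR, DESeq2 or limma-voom, and 1 of 5 had an unadjusted p under 0.05. Over all 12687 tested genes, 19.0% had an unadjusted p under 0.05 in edgeR. That share is the background for each count of this kind given below. Rela encodes p65, the main activating subunit. It averaged 169 ± 5.58 CPM in OCA and 160 ± 7.16 CPM in DMSO, with a log2 fold change of 0.08 and a 95% interval of -0.05 to 0.21. Nfkb1, which encodes the p105 precursor of p50, averaged 118 ± 5.95 CPM in OCA and 126 ± 5.54 CPM in DMSO (log2 fold change -0.09, interval -0.23 to 0.04). The libraries of the treatments overlapped in both genes. Nfkb2, the precursor gene of the non-canonical pathway's p52, had 102, 118 and 113 CPM in OCA A, B and C, against 133, 128 and 126 CPM in DMSO A, B and C. The groups did not overlap, with every OCA library the lower, but the log2 fold change of -0.22 (SE 0.07) did not pass (adjusted p = 0.0795, edgeR). Relb, the partner of p52, averaged 46.9 ± 5.97 CPM in OCA and 50.1 ± 2.34 CPM in DMSO (log2 fold change -0.09). Rel, which encodes c-Rel, was the least abundant subunit gene per kilobase, with 2.31 ± 0.334 CPM per kilobase in OCA and 2.84 ± 0.230 in DMSO. Its libraries did not overlap, and its log2 fold change of -0.30 had an interval of -0.75 to 0.15. Shifts within these intervals were not resolved.

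Receptor (Tnfrsf1a only), adaptor and kinase genes of the set were not called either, by any of the 3 tools. Of 8 tested, 1 had an unadjusted p under 0.05, beside 19.0% of all tested genes in edgeR. Tnfrsf1a averaged 233 ± 11.5 CPM in OCA and 238 ± 18.4 CPM in DMSO, with a log2 fold change of -0.03 and an interval of -0.18 to 0.12. The IkB kinase genes Chuk (56.2 ± 1.51 CPM in OCA and 58.3 ± 3.06 CPM in DMSO) and Ikbkb (75.4 ± 1.79 CPM in OCA and 72.2 ± 4.95 CPM in DMSO) had intervals of -0.21 to 0.11 and -0.09 to 0.22. Their libraries overlapped. The IKK-related kinase gene Ikbke was at a lower level, with 7.50 ± 1.25 CPM in OCA and 7.69 ± 0.581 CPM in DMSO, and its interval of -0.46 to 0.39 was correspondingly wide. Traf2, an adaptor of TNF receptors, averaged 46.5 ± 3.80 CPM in OCA and 45.6 ± 0.894 CPM in DMSO. Traf3, which restrains the non-canonical pathway, averaged 91.9 ± 10.3 CPM in OCA and 96.4 ± 2.92 CPM in DMSO. In both genes the libraries of the groups overlapped, with log2 fold change intervals of -0.15 to 0.21 for Traf2 and -0.23 to 0.09 for Traf3. The ubiquitin ligase gene Birc2 had 52.5, 42.7 and 42.0 CPM in OCA A, B and C, against 57.5, 50.7 and 58.5 CPM in DMSO A, B and C. OCA A lay within the range of the DMSO libraries, and the log2 fold change of -0.28 (SE 0.10) did not pass (adjusted p = 0.0963, edgeR). Its relative Birc3 averaged 38.2 ± 0.451 CPM in OCA and 39.1 ± 1.73 CPM in DMSO (log2 fold change -0.04). Traf1, an adaptor that NF-kB is known to induce, had 5 counts over the OCA libraries and 15.5 over the DMSO libraries and was not tested.

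The inhibitors and modulators changed in different directions. Nfkbia (NM_010907, mm10 chromosome 12, 55489409 to 55492647, minus strand) had 97.3, 92.3 and 96.1 CPM in OCA A, B and C, against 76.2, 71.8 and 83.4 CPM in DMSO A, B and C. All 3 OCA libraries lay above all 3 DMSO libraries, and the log2 fold change was 0.30 (SE 0.07, adjusted p = 0.0192, edgeR). The call ended on leaving out either OCA A or OCA C, or either DMSO A or DMSO B, with adjusted p between 0.0689 and 0.0866. The IkB genes for the beta and epsilon inhibitors showed no such difference. Nfkbib averaged 42.9 ± 4.55 CPM in OCA and 41.6 ± 4.28 CPM in DMSO (interval of the log2 fold change -0.16 to 0.25), and Nfkbie averaged 22.3 ± 3.23 CPM in OCA and 21.8 ± 1.08 CPM in DMSO (interval -0.23 to 0.29). The difference between Nfkbia and these 2 genes was not itself tested.

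Nfkbiz (NM_030612, chromosome 16, 55811377 to 55838641, minus strand) encodes IkB-zeta, a nuclear protein known in macrophages to be needed for a late set of NF-kB target genes. It had 4.32, 8.97 and 7.14 CPM in OCA A, B and C, against 13.6, 11.5 and 16.8 CPM in DMSO A, B and C. The groups did not overlap, and OCA A was the lowest library and DMSO C the highest. The log2 fold change was -1.04 (SE 0.22, adjusted p = 0.00836, edgeR), from 265.5 counts over the OCA libraries and 622 over the DMSO libraries, and the call ended without DMSO C (adjusted p = 0.0703). Bcl3 (NM_033601, chromosome 7, 19808462 to 19822755, minus strand) encodes a nuclear IkB-like protein that binds p50 and p52 dimers. It had 9.68, 9.28 and 10.8 CPM in OCA A, B and C, against 14.9, 16.8 and 17.7 CPM in DMSO A, B and C. No OCA library reached the level of any DMSO library. The log2 fold change was -0.73 (SE 0.15, adjusted p = 0.00732, edgeR), and the call held under all 14 alternatives run, with adjusted p up to 0.0473. Tnfaip3, which encodes the ubiquitin-editing feedback inhibitor A20, averaged 11.6 ± 2.07 CPM in OCA and 15.2 ± 2.79 CPM in DMSO. OCA B lay above DMSO B, and the log2 fold change of -0.40 (SE 0.17) did not pass (adjusted p = 0.218, edgeR).

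**Figure D2:**
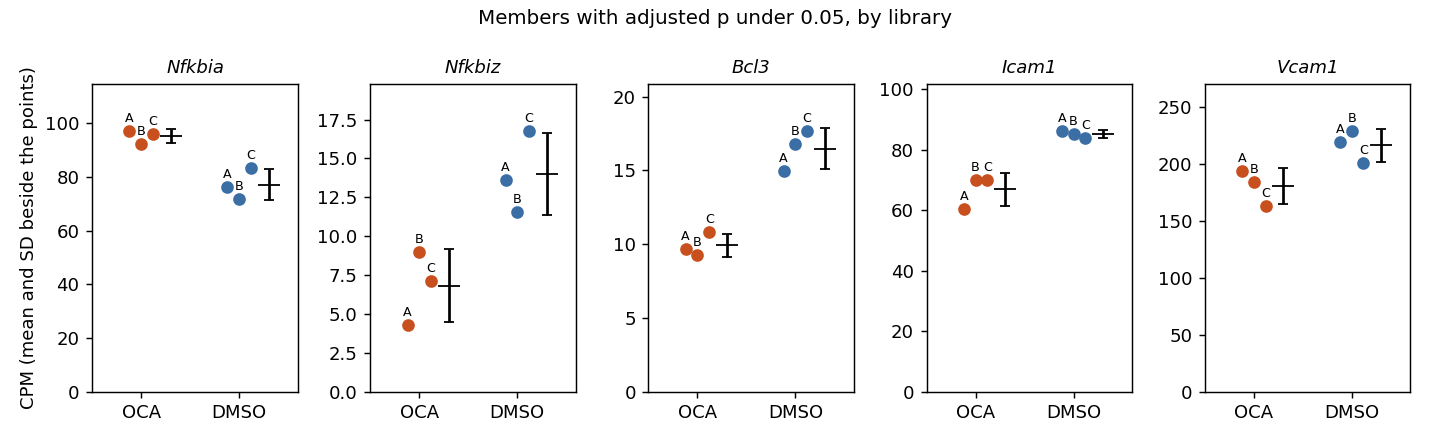
CPM of the 5 called genes in each library, with OCA left of DMSO, library letters above the points, and the mean and SD (n = 3) beside each group; every vertical axis starts at 0. Nfkbia lies higher in all OCA libraries, and Nfkbiz, Bcl3, Icam1 and Vcam1 lie lower in all of them.

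Both adhesion molecule genes fell. Icam1 (NM_010493, chromosome 9, 21015940 to 21028814, plus strand) encodes the ligand of leukocyte beta-2 integrins. It had 60.4, 70.2 and 70.1 CPM in OCA A, B and C, against 86.4, 85.3 and 84.0 CPM in DMSO A, B and C. The DMSO libraries lay close together, all above the OCA libraries, and OCA A was the lowest. The log2 fold change was -0.35 (SE 0.08, adjusted p = 0.00891, edgeR), and the call ended without OCA A (log2 fold change -0.28, adjusted p = 0.0634). Vcam1 (NM_011693, chromosome 3, 116110020 to 116129688, minus strand) encodes the ligand of the integrin VLA-4 on monocytes and lymphocytes. It had 194, 184 and 163 CPM in OCA A, B and C, against 219, 229 and 201 CPM in DMSO A, B and C. The groups did not overlap, but OCA A and DMSO C were close, and the log2 fold change of -0.26 (SE 0.07) passed narrowly (adjusted p = 0.0448, edgeR). It no longer passed without OCA A, without OCA C or without any 1 of the DMSO libraries, with adjusted p between 0.0526 and 0.241. Genes antisense to Icam1, Vcam1 and Bcl3 share 511 of 4360, 61 of 8870 and 161 of 2475 annotated exon bases with them (GENCODE M21). No source used here gives the strand setting, so reads from these stretches cannot be assigned to one strand. The same limit holds for the uncalled Nfkb2 (531 and 299 of 4584 bases) and Nfkbib (314 and 42 of 2169). It also holds for Ikbke (159 and 65 of 9018), Tnfaip2 (314 of 4984), Cxcl16 (552 of 3021) and Cxcl10 (133 of 2252).

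Lower genes in this comparison had long transcripts, with a median of 5988 bases over the 384 called lower, against 2933 bases over all tested genes. The 4 lower genes here were between 1824 and 3839 bases long. With offsets that remove a length trend from each library, all 5 calls were made again. Leaving out OCA B and DMSO A together also left the 5 calls in place.

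Among chemokines, expression was concentrated in 3 genes. Cxcl12 averaged 1283 ± 80.2 CPM in OCA and 1287 ± 130.4 CPM in DMSO, with a log2 fold change of -0.0046 and an interval of -0.19 to 0.18. Cxcl16, a membrane-bound chemokine that attracts CXCR6-bearing T and NKT cells, averaged 44.2 ± 2.98 CPM in OCA and 40.6 ± 1.72 CPM in DMSO (interval -0.06 to 0.31). Cx3cl1, which encodes fractalkine, another membrane-bound chemokine, averaged 29.3 ± 4.32 CPM in OCA and 26.1 ± 0.701 CPM in DMSO (interval -0.07 to 0.41). In all 3 the libraries of the groups overlapped. A change of Cxcl12 beyond 0.19 on the log2 scale in either direction lies outside its interval. Exons of Zmynd15 on the opposite strand share 552 bases with Cxcl16.

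The other 9 chemokine genes averaged under 4 CPM in both groups, and none was called by edgeR, DESeq2 or limma-voom. Each tool gave 2 chemokine genes an unadjusted p under 0.05. In edgeR these were 2 of 7 tested, beside 19.0% of all tested genes. The monocyte attractant Ccl2 had 0, 1.27 and 0.942 CPM in OCA A, B and C, against 1.84, 1.76 and 1.82 CPM in DMSO A, B and C. The groups did not overlap. Its summed counts were 28.5 in OCA and 79.5 in DMSO, a depth-scaled ratio of 0.393 with an exact 95% interval of 0.246 to 0.611. Intervals of this kind cover counting error only, and the edgeR test, which includes the spread between libraries, gave adjusted p = 0.249. Ccl5, which attracts T cells and monocytes, lay the other way, with 2.63, 1.07 and 1.57 CPM in OCA A, B and C, against 0.422, 0.920 and 0.781 CPM in DMSO A, B and C (ratio 2.58, interval 1.66 to 4.11, adjusted p = 0.150 by edgeR). OCA A was the highest library of Ccl5 and the only one with no Ccl2 count. Ccl7, a close relative of Ccl2, summed to 93.5 counts in OCA and 152.5 in DMSO (ratio 0.694, interval 0.531 to 0.904, adjusted p = 0.458 by edgeR). The interferon-induced CXCR3 ligand Cxcl10 summed to 100 counts in OCA and 161.5 in DMSO (ratio 0.693, interval 0.535 to 0.895, adjusted p = 0.445 by edgeR). In both the counting intervals lay below 1, while the libraries of the groups overlapped.

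The listed ligands of the neutrophil receptor CXCR2 were low, at no more than 1.76 CPM in any library. Cxcl1 had 2, 4.5 and 1 counts in OCA A, B and C, against 7, 19.5 and 27 counts in DMSO A, B and C. In CPM the groups did not overlap, although DMSO A, at 0.422 CPM, was closer to OCA B, at 0.345 CPM, than to DMSO B and DMSO C, at 1.63 and 1.76 CPM. The depth-scaled ratio of the sums was 0.166, with an exact interval of 0.0683 to 0.352. The filter on low counts kept Cxcl1 out of the test. It was called lower when the filter was removed (log2 fold change -2.78, adjusted p = 0.0359, edgeR), without OCA B, without DMSO A and without both, and was not called without OCA A or OCA C; without DMSO B or DMSO C it was not tested. DESeq2 gave it no adjusted p. Cxcl2 had 1 count over the OCA libraries and 4 over the DMSO libraries, and the exact interval of its ratio, 0.0057 to 2.84, included 1. Cxcl5 had 1 count over the OCA libraries and 10 over the DMSO libraries, a ratio of 0.112 with an exact interval of 0.00259 to 0.789. Without the filter on low counts, edgeR gave Cxcl5 an adjusted p of 0.538. The eosinophil attractant Ccl11 and the CCR6 ligand Ccl20 were not detected.

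**Figure D3:**
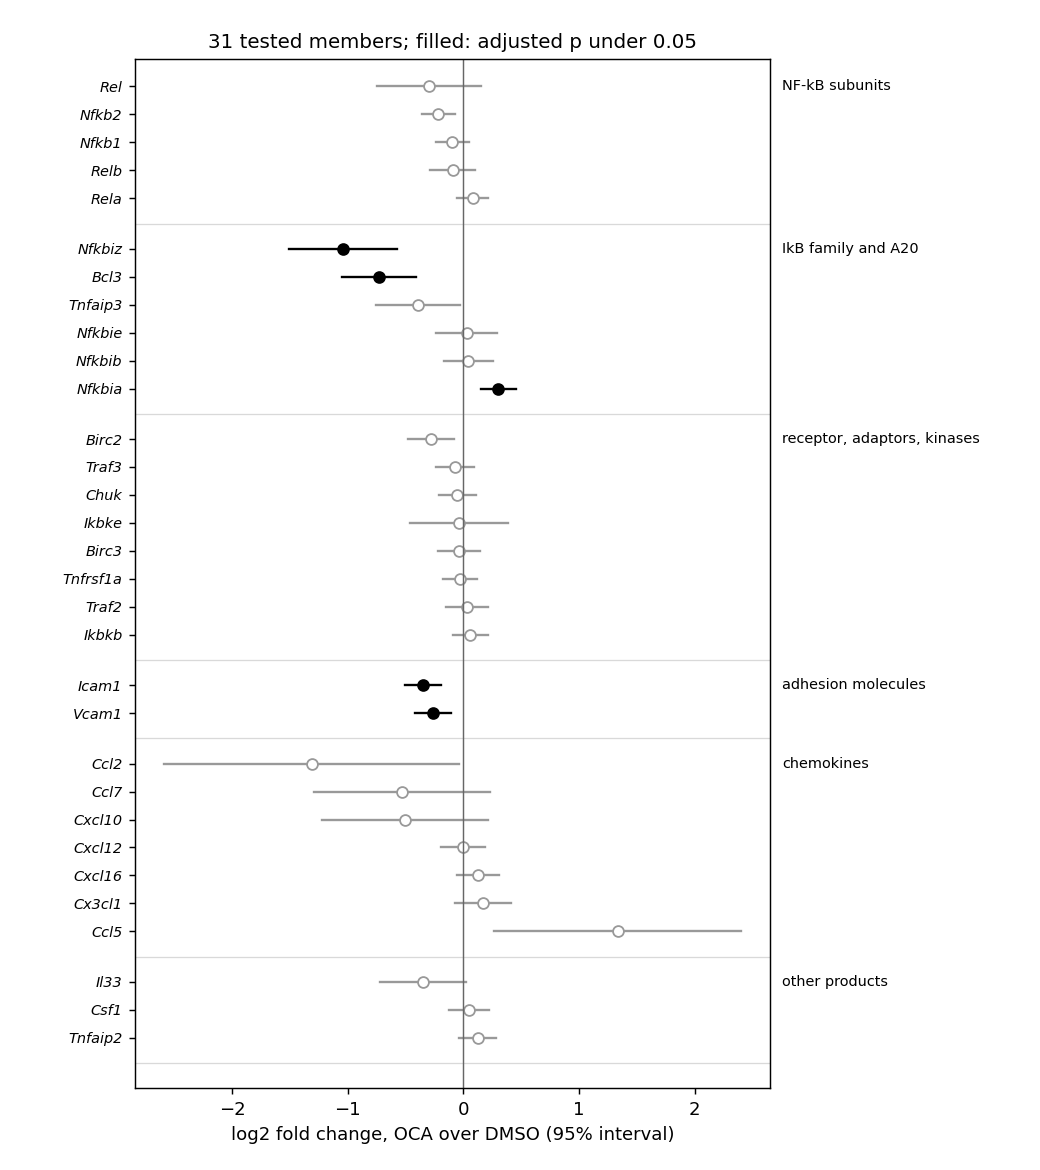
Log2 fold change of OCA over DMSO for the 31 tested genes with 95% intervals, grouped by role and ordered within a role; filled points have an adjusted p under 0.05. Nfkbiz, Bcl3, Icam1 and Vcam1 lie left of 0 and Nfkbia right of it, and intervals are widest for the low chemokine genes Ccl2 and Ccl5.

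The other products were not called, with none of 3 tested at an unadjusted p under 0.05 in edgeR and no call by DESeq2 or limma-voom. Csf1 averaged 848 ± 53.0 CPM in OCA and 822 ± 69.0 CPM in DMSO, with a log2 fold change of 0.05 and an interval of -0.13 to 0.22. Tnfaip2, a TNF-induced gene, averaged 114 ± 8.51 CPM in OCA and 104 ± 7.80 CPM in DMSO (interval -0.03 to 0.28). The alarmin gene Il33 had 8.48, 9.85 and 10.2 CPM in OCA A, B and C, against 10.4, 11.3 and 14.6 CPM in DMSO A, B and C. These groups did not overlap, though OCA C and DMSO A were nearly equal, and the log2 fold change of -0.35 (SE 0.18) did not pass (adjusted p = 0.295, edgeR). Il1rl1, which encodes the IL-33 receptor ST2, had 1 count over the OCA libraries and 4 over the DMSO libraries.

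The rest of the pathway was covered by 104 further genes, of which 65 were tested, 4 were higher and 2 lower, shares of 6.15% and 3.08% beside 2.18% and 3.03% of all tested genes. Their median log2 fold change was -0.05. Of the 13 tested receptor genes upstream of NF-kB, 2 rose and none fell. Tnfrsf1b, the second TNF receptor gene, had 355, 371 and 350 CPM in OCA A, B and C, against 286, 302 and 270 CPM in DMSO A, B and C (log2 fold change 0.33, SE 0.07, adjusted p = 0.00737, edgeR). Il1r1, the signalling IL-1 receptor gene, had 331, 348 and 322 CPM in OCA A, B and C, against 281, 274 and 249 CPM in DMSO A, B and C (log2 fold change 0.32, SE 0.07, adjusted p = 0.0106, edgeR). Both rose in all OCA libraries relative to all DMSO libraries, and both calls ended without DMSO C. None of 20 tested upstream adaptor and kinase genes was called by any of the 3 tools. An unadjusted p under 0.05 was seen in 3 of them, beside 19.0% of all tested genes in edgeR.

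Of 9 tested negative regulators 1 fell and none rose. Zc3h12a, which encodes the mRNA-degrading enzyme regnase-1, averaged 5.44 ± 1.04 CPM in OCA and 9.65 ± 0.570 CPM in DMSO (log2 fold change -0.83, SE 0.21, adjusted p = 0.0251, edgeR), a call that ended without either OCA A or OCA C, or either DMSO A or DMSO C. Of 12 tested target genes 1 fell and 1 rose. Ptgs2, the inducible cyclooxygenase gene, averaged 35.4 ± 6.16 CPM in OCA and 51.9 ± 3.28 CPM in DMSO (log2 fold change -0.55, SE 0.11, adjusted p = 0.0043, edgeR) and was called under all 14 alternatives. Bcl2l1, which encodes the survival protein Bcl-xL, averaged 293 ± 2.27 CPM in OCA and 251 ± 6.74 CPM in DMSO (log2 fold change 0.22, SE 0.06, adjusted p = 0.045, edgeR), a call that ended with length offsets, without OCA B and DMSO A together, and without any 1 library other than DMSO B. The cytokine genes Il1b, Tnf and Il6 were at or near 0: Il1b had no counts, and neither Tnf nor Il6 exceeded 0.6 CPM in any library. Of 7 other tested adhesion genes only Mcam, an adhesion molecule of pericytes and endothelium, was called. It averaged 74.6 ± 7.90 CPM in OCA and 59.2 ± 3.13 CPM in DMSO (log2 fold change 0.33, SE 0.08, adjusted p = 0.0244, edgeR), and the call ended without OCA A, DMSO A, DMSO B or DMSO C. Of 22 other chemokine genes 4 were tested and none was called by any of the 3 tools; 0 had an unadjusted p under 0.05 in edgeR and limma-voom and 1 in DESeq2.

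**Figure D4:**
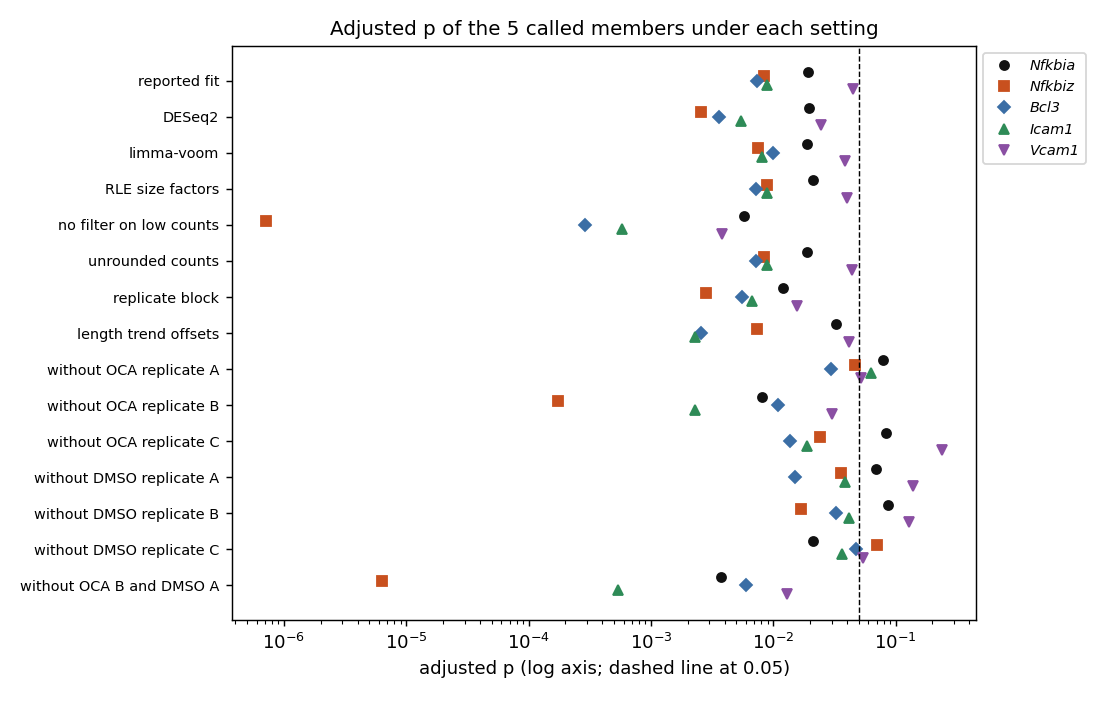
Adjusted p of the 5 called genes in the reported fit and under each of 14 alternatives, on a log axis with a dashed line at 0.05. Bcl3 stays left of the line throughout, Nfkbiz and Icam1 each cross it in 1 fit that leaves out a library, and Nfkbia and Vcam1 cross it in 4 and 5.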

How the data were processed

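Poly(A) RNA was made into libraries using a NEBNext Ultra kit, per the labels. Per the submitters' processing notes, STAR and HOMER were used with the build mm10. Tool versions, strand setting and duplicate handling were not given in the sources used here. As deposited by the authors, the data are 1 table of unadjusted exon counts per gene, in steps of 0.5, which were handled like expected counts and rounded to whole numbers (ties to even) for the tests. Between 26.5% and 29.8% of a column's values were not whole. The deposited transcript length, in bases, gave CPM per kilobase.

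All genes were fitted in R 4.3.3 by edgeR 4.0.16 (TMM scaling after filterByExpr, then glmQLFit and glmQLFTest, two-sided, no block), with Benjamini-Hochberg adjustment over 12687 genes. The SE of a log2 fold change is its absolute value over the square root of F, and 95% intervals use the test's degrees of freedom. CPM values use unrounded counts on TMM-scaled library sizes, and 3 counts in a library correspond to 0.181 to 0.251 CPM. Exact intervals of count ratios are Clopper-Pearson, on sums rounded to whole numbers. Within groups, libraries differed beyond sampling noise (chi-square per degree of freedom 4.40 to 8.02). The fit was tested on simulated data. Alternatives were DESeq2 1.42.0, limma-voom (limma 3.58.1), RLE size factors, no filter, unrounded counts, a replicate block, length-trend offsets and leaving out libraries. The genes, lists, alternatives and naming rule were chosen with earlier results of these data known. The naming rule takes all 38 genes, with the value in every library for called ones and values for uncalled ones at 5 CPM or more, and up to 4 called genes of each further list. Cell markers, Ccl2, Ccl5, Ccl7, Cxcl10, Cxcl1 and the uncalled cytokine genes were named beyond it, after their values were seen.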

Additional observations from a re-analysis of the deposited data

How the results depend on the processing

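DESeq2, limma-voom, RLE size factors, unrounded counts, length-trend offsets and leaving out OCA B and DMSO A kept the calls of Nfkbia, Nfkbiz, Bcl3, Icam1 and Vcam1. Without the filter on low counts 8 of the 38 genes were called, 1 higher and 7 lower, as Nfkb2 (adjusted p = 0.0433), Birc2 (0.034) and Cxcl1 were added; the cause was not tested. Leaving out 1 library gave 3 to 7 calls in all, 0 to 1 higher and 2 to 6 lower. Nfkb2 was also called without OCA B, and Birc2 without OCA A. Of the 26 uncalled tested genes, 24 were called under none of the alternatives, and 9, with log2 fold changes of at most 0.07 in size, changed sign under at least 1. The letters A, B and C do not pair the libraries in the labels, and deviations of same-letter libraries correlated at -0.0433 to 0.0535. With a replicate block the same 5 genes were called, 1 higher and 4 lower. At this depth the exact counting intervals of the OCA over DMSO ratio included 1 for Traf1, Cxcl2 and Il1rl1. Those of Ccl2, Ccl5, Ccl7, Cxcl1, Cxcl5 and Cxcl10 did not. Such intervals leave out the spread between libraries. In the reported edgeR fit Ccl2, Ccl5, Ccl7 and Cxcl10 were not called, and Cxcl1 and Cxcl5 were not tested.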
